A study of Mus musculus with 6 samples.

Results

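Axon guidance genes are described here: semaphorins and their plexin receptors, ephrins and their Eph receptors, Slit ligands and Robo receptors, and netrins with their Unc5 receptors. They were chosen by name, as the array's genes called Sema3 to Sema7, Plxna to Plxnd, Epha, Ephb, Efna, Efnb, Slit1 to Slit3, Robo1 to Robo4, Ntn1, Ntn4 and Unc5a to Unc5c. The rule found 63 genes with 90 probes, out of 34743 gene names with 55547 usable probes. Of these 63 genes, 56 had a probe that the scanner software marked as well above background on 3 or more of the 6 arrays, and these were tested, among 21478 genes tested in all. A gene high in 1 genotype alone could pass that filter through that genotype.

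The study measured RNA of fetal aortic arteries from C57BL/6 mice on Agilent 1-colour arrays, with 3 arrays of Nod1 +/- fetuses and 3 of Nod1 -/- fetuses. NOD1 is an intracellular receptor for fragments of bacterial peptidoglycan, and FK565 is a synthetic ligand for it. Every fetus came from a Nod1 -/- dam mated with a Nod1 +/- male, and every dam had received 500 µg of FK565 under the skin at E18.5, late in gestation, with the vessels taken 6 h later. Both groups therefore share the Nod1 -/- mother, the treatment and the time, and differ in whether the fetus itself carries a working Nod1 allele. No group without FK565 was analysed here, so each difference is one between genotypes after the ligand. The labels call the fetuses littermates and do not say whether an array held 1 fetus or several, so the spread behind each p-value is that of these samples and may be technical.

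Guidance molecules were first known for steering growing axons by attraction and repulsion. In vessels, semaphorins act through plexins, the secreted ones usually together with neuropilins, and shape endothelial sprouting and the routing of vessels. Ephrins and Eph receptors signal in both directions between touching cells, and Efnb2 and Ephb4 are the classical pair of arterial and venous identity. Slit ligands bind Robo receptors such as Robo1 and Robo2, and Robo4 is a family member made by endothelium. Netrins bind Unc5 receptors, of which Unc5b is the vascular one.

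Promoter windows were examined because some of these genes differed between genotypes together. RefSeq promoter windows of build GRCm38.p6, each holding 250 bases before and 50 bases after a gene start, were found for 55 of the 63 genes, in 71 windows. The 250 bases before the start are shown for the 3 genes whose difference between genotypes held under every processing setting tried, Sema7a, Slit2 and Sema3c. They are followed by the window before the outermost start of Sema4b, which was also higher in Nod1 +/- aortas. All run 5′ to 3′ on the gene's own strand, which is the plus strand of each chromosome, at chr9:57939862-57940111 for Sema7a, chr5:47982905-47983154 for Slit2, chr5:17574566-17574815 for Sema3c and chr7:80186620-80186869 for Sema4b. Capitals mark the hypoxia E-box ACGTG, the binding word of hypoxia-inducible factors.
Sema7a: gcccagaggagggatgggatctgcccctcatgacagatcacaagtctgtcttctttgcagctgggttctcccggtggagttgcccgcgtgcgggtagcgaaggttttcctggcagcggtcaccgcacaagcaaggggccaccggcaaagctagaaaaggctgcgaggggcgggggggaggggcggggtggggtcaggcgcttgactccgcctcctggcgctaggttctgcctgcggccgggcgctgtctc
Slit2: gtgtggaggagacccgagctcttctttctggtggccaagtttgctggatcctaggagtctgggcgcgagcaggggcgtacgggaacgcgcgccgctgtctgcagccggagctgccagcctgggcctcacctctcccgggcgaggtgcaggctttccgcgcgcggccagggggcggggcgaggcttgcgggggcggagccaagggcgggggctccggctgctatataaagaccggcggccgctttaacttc
Sema3c: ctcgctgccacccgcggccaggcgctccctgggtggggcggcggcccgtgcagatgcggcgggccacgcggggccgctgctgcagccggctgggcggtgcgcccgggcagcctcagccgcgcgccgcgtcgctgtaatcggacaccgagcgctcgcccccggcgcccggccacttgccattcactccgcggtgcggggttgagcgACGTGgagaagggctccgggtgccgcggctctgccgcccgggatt
Sema4b: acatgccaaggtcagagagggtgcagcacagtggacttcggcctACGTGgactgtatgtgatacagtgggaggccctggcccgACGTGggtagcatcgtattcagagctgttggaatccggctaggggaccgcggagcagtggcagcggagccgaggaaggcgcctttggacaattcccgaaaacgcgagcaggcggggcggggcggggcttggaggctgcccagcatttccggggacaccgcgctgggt

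Neither the Sema7a nor the Slit2 stretch holds a word of the 4 searched, and Sema3c and Sema4b hold only the E-box there. The search covered both strands for the NF-kB motif (the factor family that NOD1 activates), the AP-1 motif TGANTCA, the E-box ACGTG and the glucocorticoid receptor motif, and matches of different motifs may overlap. The next sequences show the matches of the first 2 motifs among the genes that were higher in Nod1 +/- aortas, in capitals with 10 bases on each side. The Sema4b match to the NF-kB motif begins 6 bases after its outermost start, at chr7:80186866-80186895 on the plus strand, and the Sema6b match to the AP-1 motif lies before an inner start of that gene, at chr17:56133884-56133910 on the minus strand.
Sema4b: gggtgttcacGGGATACTCCaggtccccag
Sema6b: acacgtactcTGAGTCAcaaatcctgg

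An NF-kB match was present for 12.7% of the guidance genes with a window, against 5.14% of all 27025 genes in the table. Sema4b was the match among the 7 genes that were higher, the 12 genes that were lower had 0, and 6 of the 29 genes with a window that were tested and not called had one. AP-1 matches occurred for 5.45% of guidance genes and 8.97% of all genes, and the E-box for 21.8% of both. The AP-1 matches were in 1 gene that was higher (Sema6b), 1 that was lower (Sema4d) and 1 not called (Sema4c). The glucocorticoid receptor motif was matched in 0 guidance genes and in 0.537% of all genes. A match describes letters in a window and not a binding site.

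Among the 56 guidance genes tested, 7 were higher and 12 lower in Nod1 +/- aortas at an adjusted p under 0.05 (limma, Benjamini-Hochberg over all 21478 genes). That is 33.9% of them, beside a background of 18.7% of all genes, with 12.5% higher against 7.66% and 21.4% lower against 11.0%. The list of guidance genes was chosen with earlier results of these data known, so these shares are a description and not a test. The higher genes were led by the membrane semaphorins Sema7a, Sema6b and Sema4b and included the endothelial receptor Robo4. The lower genes were led by the secreted ligand Slit2 and included Sema3a, Sema3c, the plexins Plxnb3 and Plxnc1 and the netrin receptor Unc5c. The median difference over guidance genes was -0.09 on the log2 scale, and that over all genes was -0.10.

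The 6 arrays did not overlap between genotypes for 31 of the 56 genes, or 55.4%, against 42.4% of all genes. Nod1 +/- lay above for 15 of the 56 genes and below for 16 of the 56, beside 16.3% and 26.1% of all genes. Counts in the rest of this paragraph are likewise out of 56, or out of 63 with dim probes tested too. Each background is a percentage, so a count and its background are not on 1 scale. The count of 19 fell to 12, 10, 9 and 12 when Nod1 +/- replicate 1, Nod1 +/- replicate 2, Nod1 -/- replicate 2 and Nod1 -/- replicate 3 were left out in turn. The share of all genes called fell as well, to 9.98%, 9.72%, 6.83% and 14.7%. The guidance count was 13 (background 15.8%) and 14 (background 8.66%) without Nod1 +/- replicate 3 and Nod1 -/- replicate 1. Omitting replicate 1 of both genotypes left 4 (background 2.98%), and testing dim probes too left 7 (background 4.72%). Slide row was nearly confounded with genotype, since the first row of the slide held only Nod1 -/- replicates 1 and 2. A block for slide row therefore compared the 3 Nod1 +/- arrays with Nod1 -/- replicate 3 alone, which was assumed to vary like the others, and left 5 (background 4.81%). Genotype and slide row can hardly be told apart here.

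**Figure D1:**
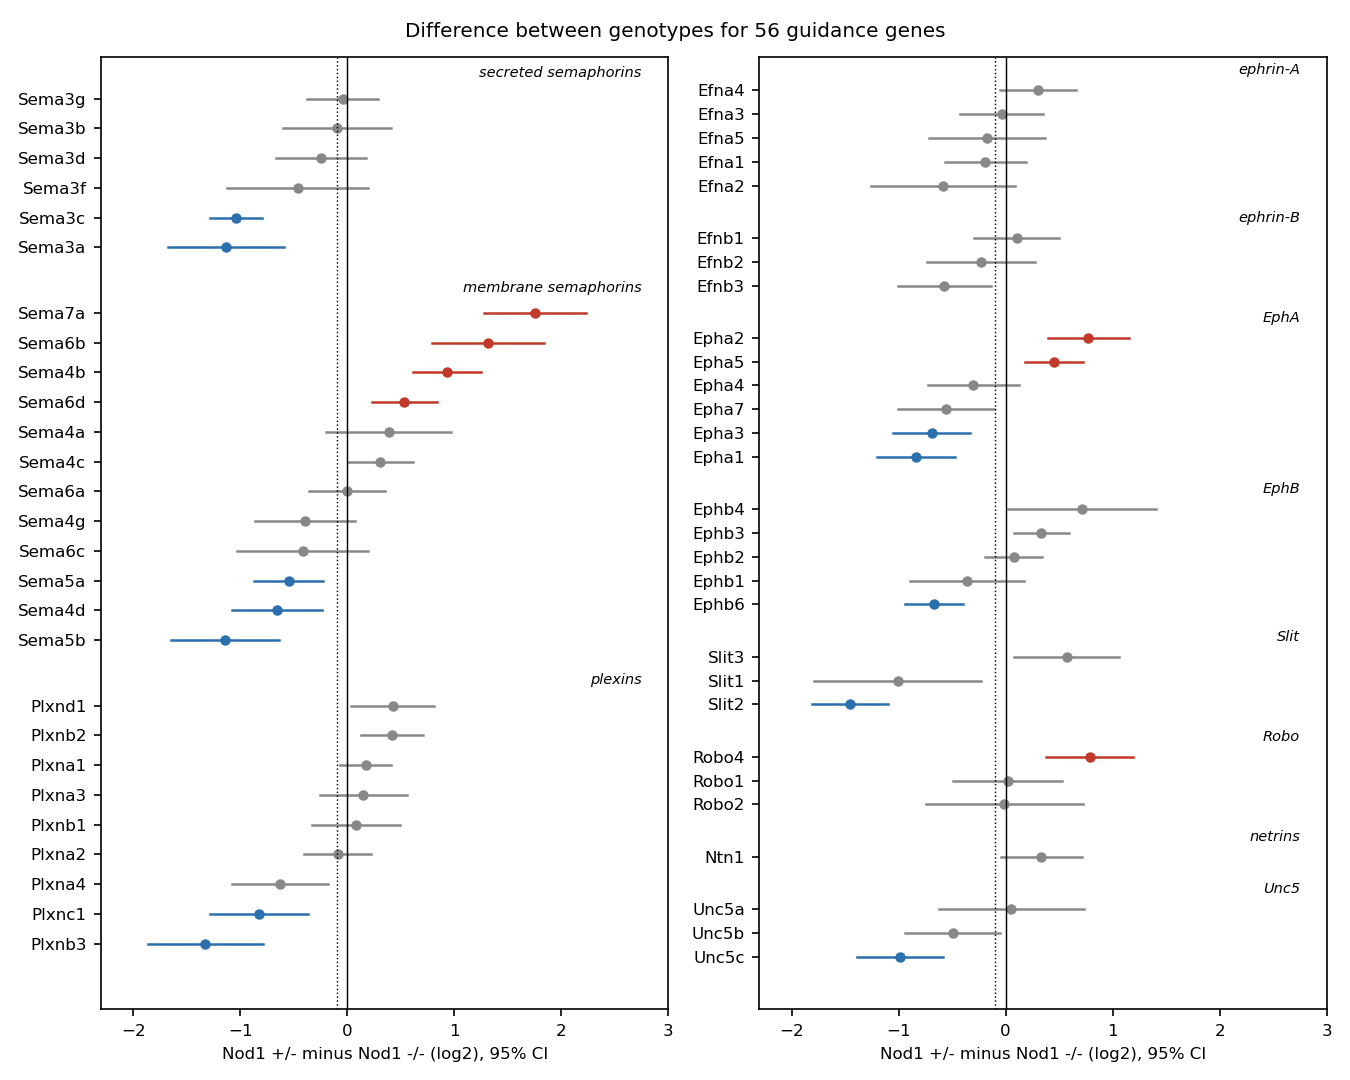
Difference in log2 level (Nod1 +/- minus Nod1 -/-) of each of the 56 tested guidance genes, as a point with its 95% confidence interval from limma, grouped by role. Red and blue points passed an adjusted p of 0.05 as higher or lower, grey points did not, and the dotted line marks the median of all genes at -0.10. The differences run from -1.45 for Slit2 to 1.76 for Sema7a.

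Whole-series checks set the frame for these values. Between 48.6% and 58.4% of probes were well above background on each array. The Nod1 probe itself read 3.15, 3.19 and 3.78 in Nod1 +/- and 3.20, 3.18 and 3.35 in Nod1 -/- on the log2 scale (difference 0.13, limma adjusted p = 0.649), and whether it lies in the deleted part of the gene was not given in the sources used here, so it checks no label. All 8 smooth muscle and all 10 endothelial markers were well above background on every array, and so were all 7 fibroblast markers. Of 10 skeletal muscle markers 8 to 10 were, of 10 neutrophil markers 9 to 10, and of 11 sympathetic neuron and chromaffin markers 10 to 11. These flags therefore do not tell tissues apart. Nod1 +/- replicate 1 stood apart in skeletal muscle markers, with a summed signal of 777 times the array's 75th percentile against 25.9 to 48.9 on the other 5 arrays. Nod1 -/- replicate 1 stood apart in sympathetic neuron and chromaffin markers, at 70.6 against 3.65 to 18.7.

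Every level below is a log2 signal relative to the array's own 75th percentile, given for replicates 1, 2 and 3 in that order, and a difference is Nod1 +/- minus Nod1 -/-. Levels of different genes come from different probes and are not compared. Counts of called genes by role or marker list stand beside 7.66% higher and 11.0% lower among all genes. These groups are small, so a count near those shares says little about the group. Since whole vessels were measured, fewer cells of a type and less RNA per cell cannot be told apart.

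Both secreted semaphorins that passed the test were lower in Nod1 +/- aortas, and the other 4 of the 6 tested did not pass. Sema3c, a ligand needed for the septation of the cardiac outflow tract, read 2.02, 1.83 and 1.81 in Nod1 +/- and 2.90, 2.94 and 2.93 in Nod1 -/-. All 3 Nod1 +/- arrays lay below all Nod1 -/- arrays, and the spread within each genotype was small (SD 0.11 and 0.02, n = 3 each). The difference was -1.04 ± 0.10 (SE), or 2.06-fold, with a limma adjusted p of 0.0024. Its probe lies at chr5:17235981-17236040 of mm9 on the plus strand. A second Sema3c probe gave -0.97 ± 0.15 (limma adjusted p over all probes = 0.0126), so both probes passed in the same direction.

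Sema3a, the classical repellent of sensory and sympathetic axons, read -2.42, -1.77 and -1.66 in Nod1 +/- and -0.87, -0.96 and -0.63 in Nod1 -/-. The genotypes did not overlap, and the difference was -1.13 ± 0.22 (SE), or 2.19-fold (limma adjusted p = 0.021). A second Sema3a probe, also above background on all 6 arrays, read -3.17, -2.52 and -2.58 against -2.88, -2.71 and -2.84, a difference of 0.06 ± 0.19 that did not pass. The 2 probes of Sema3a thus disagreed. The call of Sema3a was lost without Nod1 -/- replicate 1, 2 or 3, with limma adjusted p of 0.0626, 0.0651 and 0.0575, and its value moved to -0.54 (adjusted p = 0.113) as the mean of both probes.

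Sema3f and Sema3d had the smallest adjusted p among the secreted semaphorins that did not pass, with differences of -0.46 ± 0.27 and -0.24 ± 0.17 (SE). Sema3f, a ligand that repels endothelial and neural crest cells, read 3.31, 3.65 and 4.13 against 3.82, 4.11 and 4.55, so the genotypes overlapped. Sema3g, which is made by arterial endothelium, read 0.63, 0.76 and 0.99 against 1.01, 0.78 and 0.72. Its difference was -0.04 with a 95% interval from -0.38 to 0.29. Sema3b had a difference of -0.10, and Sema3e was above background on 1 Nod1 +/- array alone and was not tested.

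Membrane semaphorins moved in both directions, with 4 of 12 higher (background 7.66%) and 3 lower (background 11.0%). Sema7a, a membrane-anchored semaphorin also made by immune cells, showed the largest difference of any guidance gene toward Nod1 +/-. Its levels were 0.87, 0.99 and 1.45 in Nod1 +/- and -0.47, -0.90 and -0.59 in Nod1 -/-, so the groups were well apart. The difference was 1.76 ± 0.19 (SE), or 3.38-fold, with a 95% interval from 1.28 to 2.23 (limma adjusted p = 0.00376). Its probe is at chr9:57810607-57810666 of mm9 on the plus strand, and no second probe of it was kept.

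Sema6b, a transmembrane semaphorin that binds A-type plexins, read -0.48, -0.91 and -0.98 in Nod1 +/- and -1.77, -2.13 and -2.43 in Nod1 -/-. Each Nod1 +/- array was above every Nod1 -/- array, and the difference was 1.32 ± 0.22 (SE), or 2.50-fold (limma adjusted p = 0.0121). Its call was lost without Nod1 -/- replicate 2 (adjusted p = 0.0548). Sema4b, a transmembrane semaphorin, read 0.09, 0.48 and 0.28 against -0.54, -0.74 and -0.66. The groups did not overlap, and the difference was 0.93 ± 0.13 (SE), or 1.91-fold (limma adjusted p = 0.00779). It was called without any single array, but not with a block for slide row (0.0682) or with replicate 1 of both genotypes omitted (0.0514).

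Sema6d, a ligand of Plxna1 in the heart, read 1.04, 1.0 and 0.95 in Nod1 +/- and 0.64, 0.25 and 0.49 in Nod1 -/-. Its difference was 0.53 ± 0.13 (SE), or 1.45-fold (limma adjusted p = 0.0351), with no overlap. Leaving out any array other than Nod1 -/- replicate 1 ended this call, with limma adjusted p from 0.0617 to 0.103. A second probe of Sema6d gave 0.31 ± 0.42 and did not pass.

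On the lower side, Sema5b, a transmembrane semaphorin with thrombospondin repeats, read -2.04, -1.77 and -1.39 in Nod1 +/- and -0.45, -0.88 and -0.46 in Nod1 -/-. All Nod1 +/- arrays were below the others, and the difference was -1.14 ± 0.21 (SE), or 2.21-fold (limma adjusted p = 0.0163). Of the other kept probes of Sema5b, 1 passed in the same direction at -1.53 ± 0.33 and 1 did not, at -0.57 ± 0.21. The call was lost without Nod1 +/- replicate 2 (0.0531) or Nod1 -/- replicate 1 (0.0585).

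Sema5a, its close relative, read 2.68, 2.60 and 2.79 in Nod1 +/- and 3.01, 3.29 and 3.40 in Nod1 -/-, a difference of -0.55 ± 0.13 (SE), or 1.46-fold (limma adjusted p = 0.0385). The groups did not overlap. Leaving out any array other than Nod1 -/- replicate 1 raised its adjusted p to between 0.057 and 0.125. Sema4d, which is known from lymphocytes and acts through Plxnb1, read -1.95, -1.48 and -1.55 against -0.77, -1.07 and -1.18, with a difference of -0.65 ± 0.17 (SE), or 1.57-fold (limma adjusted p = 0.0479). Its groups did not overlap either, but it lay nearest to the threshold and lost its call without any single array, with adjusted p from 0.0641 to 0.131. It also lost it with a block for replicate number (0.0988), quantile scaling (0.0539), median scaling (0.123) and the deposited table (0.0549).

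Of the membrane semaphorins that did not pass, Sema4c and Sema4g had the smallest adjusted p, with differences of 0.31 ± 0.13 and -0.39 ± 0.19 (SE). Sema4c did not overlap between genotypes, at 5.05, 4.84 and 5.16 in Nod1 +/- and 4.74, 4.58 and 4.81 in Nod1 -/-. Sema4a, Sema6a and Sema6c had differences of 0.39, 0.00 and -0.41. Sema4f was above background on 1 Nod1 -/- array alone and was not tested.

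**Figure D2:**
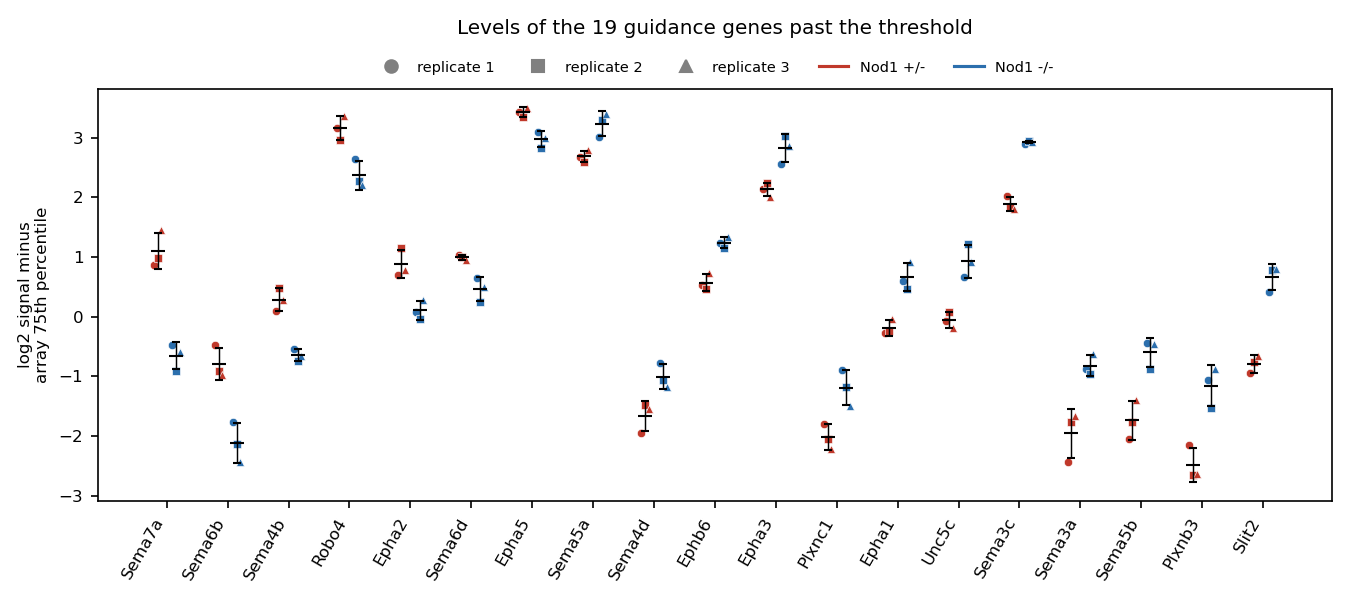
Log2 level relative to the array's 75th percentile on each of the 6 arrays for the 19 guidance genes past an adjusted p of 0.05, with red points for Nod1 +/- and blue points for Nod1 -/-, a marker shape for each replicate number and black bars for the mean ± SD (n = 3). In each of the 19 the red and blue points do not overlap, which choosing genes by adjusted p on these same arrays makes likely. Levels are comparable within a gene and not between genes.

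Plexins are the receptors that turn semaphorin binding into collapse of the cell's actin and adhesion, and all 9 members were tested. Of these, 0 were higher (2 at an unadjusted p under 0.05 by limma) and 2 lower, beside 7.66% and 11.0% of all genes. Plxnb3, the receptor for Sema5a, read -2.15, -2.66 and -2.63 in Nod1 +/- and -1.06, -1.53 and -0.87 in Nod1 -/-. The arrays separated by genotype, and the difference was -1.33 ± 0.22 (SE), or 2.51-fold (limma adjusted p = 0.0129). This call held without any single array and was lost with a block for slide row (0.052) and with replicate 1 of both genotypes omitted (0.0668).

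Plxnc1, the plexin that binds Sema7a, read -1.79, -2.05 and -2.21 in Nod1 +/- and -0.90, -1.17 and -1.50 in Nod1 -/-. It was lower without overlap by -0.83 ± 0.19 (SE), or 1.77-fold (limma adjusted p = 0.0323), while Sema7a was higher. Omitting 1 array ended the call for Nod1 +/- replicates 2 and 3 and for Nod1 -/- replicates 1 and 2 (adjusted p from 0.0721 to 0.106), as did median scaling (0.0957).

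Among the other plexins, Plxnb2, a widely made receptor for Sema4 ligands, read 5.60, 5.80 and 5.84 in Nod1 +/- and 5.23, 5.27 and 5.49 in Nod1 -/-. It did not overlap, at 0.42 ± 0.12 (SE), and missed the threshold (limma adjusted p = 0.0601), though it passed under 5 alternatives with adjusted p from 0.0259 to 0.0497. Plxna4, a partner of neuropilins in Sema3a signalling, read 1.90, 1.83 and 1.90 against 2.12, 2.56 and 2.82 and also missed it, at -0.63 ± 0.19 (adjusted p = 0.0643), and passed under 4 alternatives with adjusted p from 0.0282 to 0.0467.

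Plxnd1, the plexin of endothelial cells, read 4.47, 4.41 and 4.92 in Nod1 +/- and 4.20, 4.07 and 4.26 in Nod1 -/-. Its brightest probe gave 0.42 ± 0.16 (SE) and did not pass (limma adjusted p = 0.114). Its second probe gave 0.68 ± 0.12 and did pass over all probes (0.0185), and the mean of the 2 probes passed as well, at 0.55 (0.0376). Plxna1, Plxna2, Plxna3 and Plxnb1 had differences between -0.09 and 0.17.

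Of the 8 tested ephrin ligands 0 passed with limma after adjustment, and 1, Efnb3, had an unadjusted p under 0.05. Efnb2, the ligand that marks arteries, read 2.64, 2.71 and 3.02 in Nod1 +/- and 2.65, 3.05 and 3.36 in Nod1 -/-. These overlapped, with a difference of -0.23 and a 95% interval from -0.73 to 0.28. Efnb3 did not overlap, at -1.54, -1.18 and -1.44 against -0.50, -1.05 and -0.90, and missed the threshold at -0.57 ± 0.18 (SE, adjusted p = 0.074).

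Among A-type ephrins, which are anchored to the membrane by a lipid, Efna2 and Efna4 had differences of -0.58 ± 0.28 and 0.30 ± 0.15 (SE), with limma adjusted p of 0.188 and 0.192. Efna4 did not overlap between genotypes and Efna2 did. Efna1, Efna3, Efna5 and Efnb1 had differences between -0.19 and 0.10.

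Of 6 EphA receptors tested, 2 were higher (background 7.66%) and 2 lower (background 11.0%). Epha2, the main Eph receptor of angiogenic endothelium and of epithelia, read 0.70, 1.15 and 0.79 in Nod1 +/- and 0.09, -0.04 and 0.28 in Nod1 -/-. It was higher without overlap by 0.77 ± 0.16 (SE), or 1.71-fold (limma adjusted p = 0.0226). Omitting Nod1 +/- replicate 2 (0.0521), omitting Nod1 -/- replicate 1 (0.0748) and omitting Nod1 -/- replicate 2 (0.0856) each ended the call, as did a block for replicate number (0.0552).

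Epha5 had 2 kept probes that did not run the same way. The brighter probe, at chr5:84487348-84487407 of mm9 on the minus strand, read 3.43, 3.34 and 3.50 in Nod1 +/- and 3.10, 2.83 and 2.99 in Nod1 -/-, which is higher by 0.45 ± 0.11 (SE), or 1.37-fold (limma adjusted p = 0.0385). Its call was lost without any single array, with adjusted p from 0.0682 to 0.117. The dimmer probe passed the background flag on 0 of 3 Nod1 +/- arrays and on all 3 Nod1 -/- arrays, where it read -2.57, -3.53 and -3.61. Its signal was at least 1.96-fold lower in Nod1 +/-, with the bound set by the lowest signal well above background on each Nod1 +/- array. This probe was kept only through the Nod1 -/- arrays and its Nod1 +/- values lie below background, so it gives a bound and no test.

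Epha1 read -0.27, -0.24 and -0.03 in Nod1 +/- and 0.60, 0.46 and 0.92 in Nod1 -/-. It was lower without overlap by -0.84 ± 0.15 (SE), or 1.79-fold (limma adjusted p = 0.0157), and the call was lost without Nod1 +/- replicate 1 (0.0543) or 2 (0.0538). Epha3, a receptor of mesenchymal cells in the developing heart, read 2.15, 2.24 and 2.01 against 2.57, 3.04 and 2.87. Its arrays also separated by genotype, at -0.69 ± 0.15 (SE), or 1.61-fold (adjusted p = 0.0269). Leaving out any array other than Nod1 -/- replicate 1 ended that call, with adjusted p from 0.0589 to 0.0844, as did median scaling (0.0957).

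Epha7 and Epha4 did not pass, with differences of -0.56 ± 0.18 and -0.30 ± 0.18 (SE). Epha6, Epha8 and Epha10 were above background on 0 of the 6 arrays and were not tested.

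Of 5 EphB receptors, 1 was lower (background 11.0%). Ephb6, an Eph receptor without kinase activity, read 0.54, 0.46 and 0.73 in Nod1 +/- and 1.23, 1.15 and 1.34 in Nod1 -/-. The groups did not overlap, and the difference was -0.67 ± 0.11 (SE), or 1.59-fold (limma adjusted p = 0.0134). A dimmer second probe gave 0.10 ± 0.21 and did not pass, and the mean of both moved the value to -0.28 (adjusted p = 0.21). Without Nod1 -/- replicate 1 the adjusted p was 0.0512.

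Ephb4, the venous receptor of Efnb2, read 1.55, 1.89 and 2.48 in Nod1 +/- and 1.09, 1.03 and 1.66 in Nod1 -/-. The groups overlapped, and the difference of 0.72 ± 0.28 (SE) did not pass (limma adjusted p = 0.13). A second Ephb4 probe read 0.62, 0.56 and 0.95 against 0.26, -0.11 and 0.14 and passed at 0.61 ± 0.16 over all probes (adjusted p = 0.0477), and the brighter probe passed with the replicate number as a block (0.0363). Ephb3 did not overlap and missed the threshold at 0.34 ± 0.10 (adjusted p = 0.0746). Ephb1 and Ephb2 had differences of -0.36 and 0.08.

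Among Slit ligands, which repel axons and also act on endothelial and immune cells, Slit2 was lower and the other two did not pass. Slit2 read -0.95, -0.76 and -0.66 in Nod1 +/- and 0.41, 0.78 and 0.79 in Nod1 -/-. Each Nod1 -/- array was more than 1 log2 unit above each Nod1 +/- array. The difference was -1.45 ± 0.15 (SE), or 2.74-fold, with a 95% interval from -1.81 to -1.10 (limma adjusted p = 0.00286), the largest toward Nod1 -/- among the guidance genes. Its probe is at chr5:48696673-48696732 of mm9 on the plus strand.

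Slit3, the Slit ligand of vessel walls and diaphragm, read 3.18, 3.34 and 3.67 in Nod1 +/- and 2.57, 2.75 and 3.16 in Nod1 -/-. Its groups did not overlap and its difference lay in the other direction from that of Slit2, at 0.57 ± 0.20 (SE), but did not pass (limma adjusted p = 0.0998). It passed with median scaling (0.0484) and with the replicate number as a block (0.0289). Slit1 had a difference of -1.01 ± 0.32 and overlapped, with 2 of 3 Nod1 +/- arrays well above background.

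Robo4, the endothelial Robo receptor, which stabilises vessels, read 3.15, 2.96 and 3.36 in Nod1 +/- and 2.65, 2.27 and 2.20 in Nod1 -/-. It was higher without overlap by 0.78 ± 0.17 (SE), or 1.72-fold (limma adjusted p = 0.0263). Summed endothelial markers were at 194 to 248 in Nod1 +/- and 226 to 256 in Nod1 -/-, so the summed ranges overlapped. The mean log2 level of the same 10 markers was 2.31, 2.49 and 2.51 against 2.77, 2.64 and 2.63, without overlap. Of the 10, 0 were called higher and 2 lower, Cldn5 and Tie1. Without overlap, 1 of the 10 lay above, Cdh5 at 0.30 ± 0.09 (SE, limma adjusted p = 0.0764), and 3 lay below. The part of these markers in the Robo4 difference was not tested. Omitting 1 array ended the call for Nod1 +/- replicates 1 and 3 and for Nod1 -/- replicates 2 and 3, with adjusted p from 0.0576 to 0.0971. Robo1 and Robo2, which bind Slits, had differences of 0.02 ± 0.21 and -0.01 ± 0.30 that changed sign between settings. Robo3 was above background on 0 arrays.

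Unc5c, a netrin receptor of repelled axons, read -0.07, 0.08 and -0.19 in Nod1 +/- and 0.66, 1.21 and 0.92 in Nod1 -/-. It was lower without overlap by -0.99 ± 0.16 (SE), or 1.98-fold (limma adjusted p = 0.0128). A second Unc5c probe gave -0.61 ± 0.23 and did not pass. The call held without any single array and was lost with a block for slide row (0.102) and with replicate 1 of both genotypes omitted (0.0662).

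Unc5b, the netrin receptor of arterial endothelium, read 2.38, 2.41 and 2.63 against 2.66, 2.96 and 3.30, which did not overlap, and missed the threshold at -0.49 ± 0.18 (SE, limma adjusted p = 0.11). Unc5a had a difference of 0.05 ± 0.28 and overlapped. Ntn1, the founding netrin, read 0.03, -0.04 and 0.43 against -0.14, -0.35 and -0.10 on its brighter probe, at 0.34 ± 0.16 (adjusted p = 0.182). On a dimmer probe Ntn1 read -3.06, -3.17 and -2.97 against -3.78, -3.71 and -3.84, a difference of 0.71 ± 0.10 that passed over all probes (0.00979). Ntn4 was above background on 0 arrays.

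Several kept probes were available under the names of 17 guidance genes, of which 7 had been called on the brightest. The second probe named Plxna2 is placed on chr13 of mm9 and the brightest on chr1, so the second may not measure that gene. Another probe passed in the same direction for 2 of these 7, Sema3c and Sema5b. The second Epha5 probe, above background in Nod1 -/- alone, gave only a bound in the other direction. For 3 genes not called on the brightest probe, Ephb4, Ntn1 and Plxnd1, another probe was higher in Nod1 +/-. Of all kept probes, 16.0% passed.

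**Figure D3:**
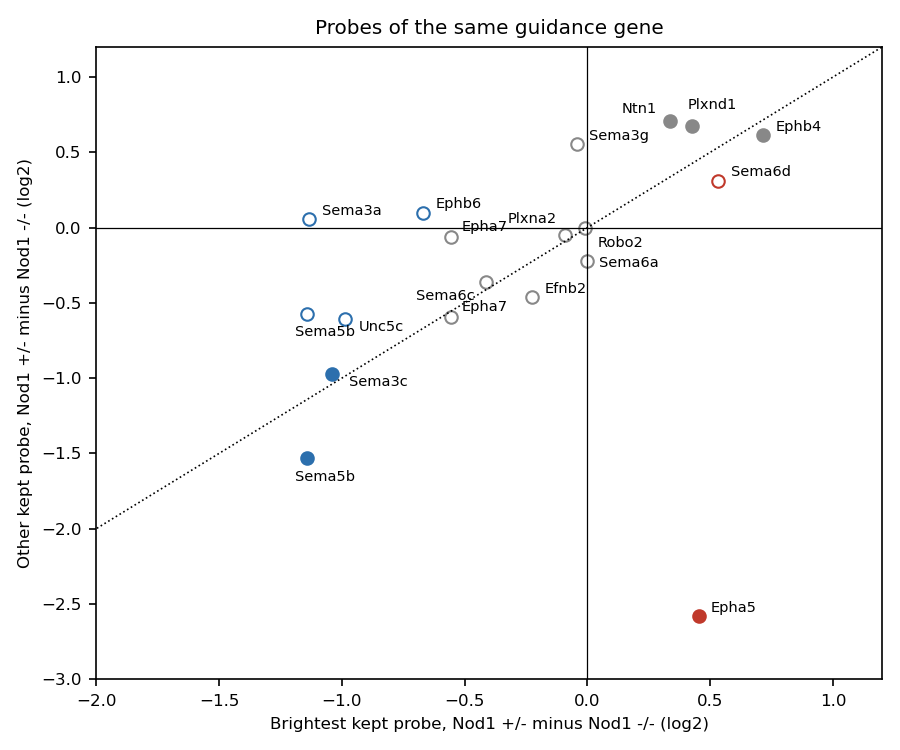
Difference in log2 level (Nod1 +/- minus Nod1 -/-) of the brightest kept probe of a gene on the horizontal axis against that of each other kept probe with the same gene name on the vertical axis. Filled points mark other probes past an adjusted p of 0.05 over all probes, colours give the call on the brightest probe (red higher, blue lower, grey not passed) and the dotted line marks equal values. Sema3c lies near that line at -1.04 and -0.97, and Epha5 lies far from it at 0.45 and -2.58, where the second value rests on Nod1 +/- signals below background and is not a measured difference, whatever its fill.

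Co-receptors and signalling partners of these families, a list of 51 genes of which 46 were tested, had 3 higher and 7 lower, or 6.52% and 15.2%, against 7.66% and 11.0% of all genes. The total of 21.7% is near the 18.7% of all genes. Rnd1, a small GTPase that binds plexins and loosens cell adhesion, read 3.23, 3.61 and 3.78 in Nod1 +/- and 0.85, 0.89 and 1.02 in Nod1 -/-. The groups were far apart, at 2.62 ± 0.16 (SE), or 6.14-fold (limma adjusted p = 0.000822), a wider gap than for any guidance gene tested. Kalrn, an exchange factor downstream of Ephb receptors, was higher by 0.98 ± 0.13 (SE, adjusted p = 0.00729), at 2.83, 2.90 and 3.15 against 1.81, 2.04 and 2.10.

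The partners with the largest lower differences included Srgap3, which acts below Slit and Robo, at -1.16 ± 0.20 (SE), and Chn2, a relative of Chn1, at -1.17 ± 0.12. Srgap3 lost its call without Nod1 -/- replicate 2 (limma adjusted p = 0.0532). Flrt1, a membrane ligand of Unc5 receptors, was at -1.19 ± 0.15 and Ntng1, a membrane-anchored netrin-G, at -1.10 ± 0.22. Chn1 and Vav3, which signal below Eph receptors, were lower by smaller amounts, at -0.52 ± 0.12 and -0.72 ± 0.17. Ntng1, Chn1 and Vav3 each lost the call without any of several single arrays, with adjusted p from 0.0537 to 0.12 in those fits.

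Neuropilins, which pair with plexins to receive secreted semaphorins, were not called. Nrp2 read 3.26, 3.15 and 3.48 in Nod1 +/- and 3.21, 2.80 and 2.69 in Nod1 -/-, at 0.40 ± 0.17 (SE, limma adjusted p = 0.154). The Nrp1 probe had an outlier spot on Nod1 +/- replicate 2 and was not tested. It read 1.66 and 1.53 on the other Nod1 +/- arrays and 1.04, 1.35 and 1.12 in Nod1 -/-.

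Markers of several cell types moved with the genotype, and their part in the results above was not tested. Summed signals below are multiples of the array's 75th percentile. Of 9 Schwann cell markers, 5 were tested and 0 were higher and 2 lower, Fabp7 and S100b, with a summed signal of 4.75 to 5.77 in Nod1 +/- and 9.42 to 13.4 in Nod1 -/-, while Sox10, a defining marker, had a difference of 0.33 that did not pass. Sympathetic neuron and chromaffin markers, 11 of 11 tested with 0 past the threshold in limma and 0 at an unadjusted p under 0.05, ran from 3.65 to 18.1 and from 7.68 to 70.6. Guidance genes called lower, such as Slit2, Sema3a and Unc5c, share their direction with any lower list, and a link to Schwann cells was not tested.

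Arterial endothelial markers, with 0 of 7 higher and 3 lower (Hey1, Gja4 and Gja5), summed to 23.1 to 29.6 in Nod1 +/- and 37.7 to 38.7 in Nod1 -/-. The other 4 overlapped and did not pass, with Dll4 and Sox17 at 0.14 and 0.06 and Acvrl1 and Cxcr4 at -0.24 and -0.44. Fibroblast markers, with 0 of 7 higher and 3 lower, summed to 943 to 959 and 1120 to 1157. Neutrophil markers, with 7 of 10 higher, summed to 168 to 271 and 22.6 to 29.7. Macrophage markers, with 3 of 9 lower, summed to 67.9 to 80.9 and 70.7 to 133. Their mean log2 level was 1.43, 1.62 and 1.37 against 2.58, 2.26 and 1.68, without overlap. That separation depends on Gpr34, which was below background on every Nod1 +/- array, and the summed signals of the list overlapped. Mrc1, Cd163 and Cd68 lay the other way, at 0.58, 0.42 and 0.13, and did not pass. Smooth muscle markers, with 0 of 8 called and 0 at an unadjusted p under 0.05 in limma, summed to 1404 to 1504 and 1494 to 1591.

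**Figure D4:**
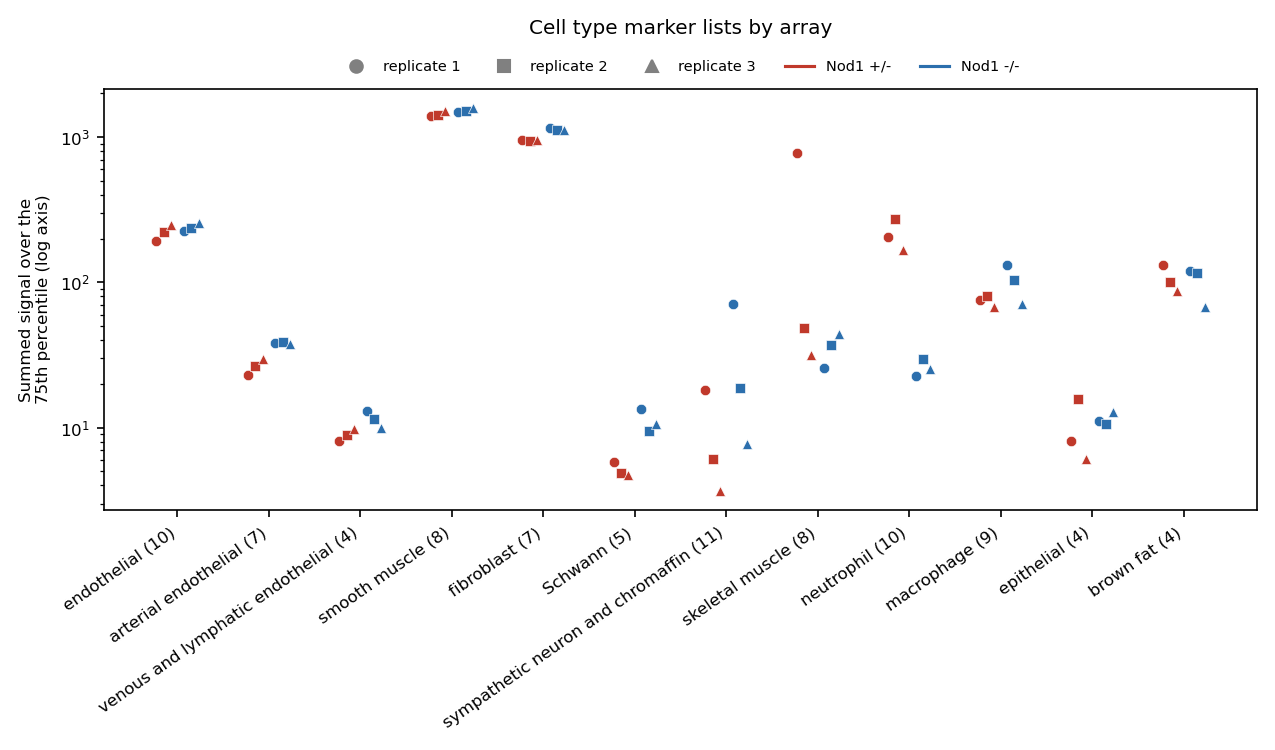
Summed signal of each cell type marker list, as a multiple of the array's 75th percentile on a log axis, on each of the 6 arrays, with red for Nod1 +/- and blue for Nod1 -/-, a marker shape for each replicate number and the count of markers summed in brackets. Neutrophil lists lie at 168 to 271 in Nod1 +/- and 22.6 to 29.7 in Nod1 -/-, Schwann lists lie lower in Nod1 +/-, and Nod1 +/- replicate 1 stands at 777 in the skeletal muscle list.

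Sema7a, Sema3c and Slit2 passed under all 17 other settings tried. Across those, the difference ran from 1.54 to 1.96 for Sema7a, from -1.12 to -0.90 for Sema3c and from -1.58 to -1.27 for Slit2. Without replicate 1 of both genotypes, the arrays with the outlying muscle and nerve markers, Sema6b also passed and the other 15 did not. With a block for slide row, which rests on 1 Nod1 -/- array, Sema6b and Epha1 passed beside those 3 genes. With no filter on dim probes Sema6b, Sema4b, Plxnb3 and Unc5c did.

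**Figure D5:**
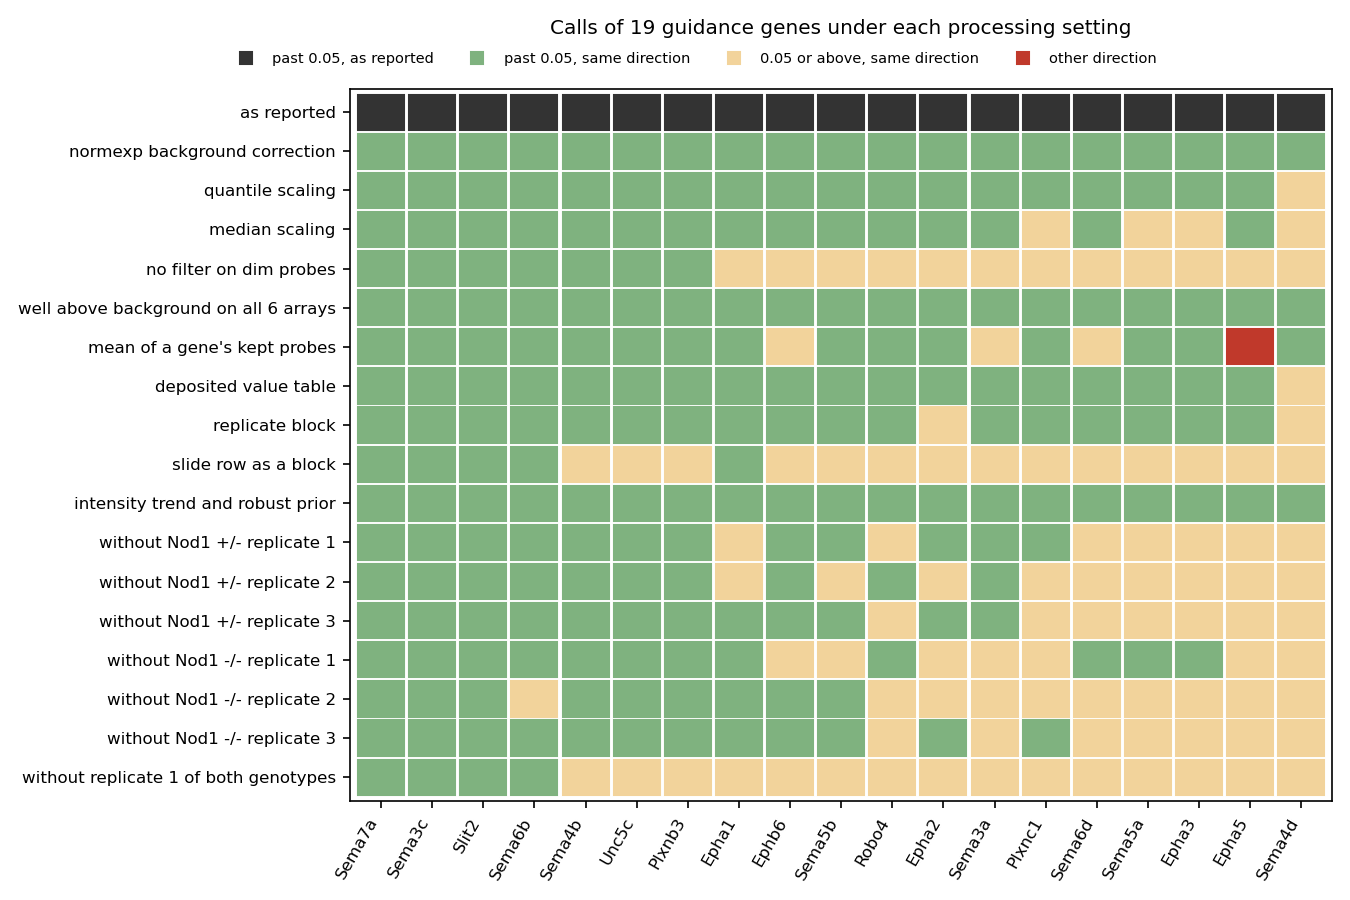
Each of the 19 called guidance genes (columns) under each processing setting (rows), with the black top row as reported. Green cells passed an adjusted p of 0.05 in the same direction, tan cells did not, and the red cell marks the other direction. The columns of Sema7a, Sema3c and Slit2 are green throughout, Sema6b has 1 tan cell, and the red cell is Epha5 with the mean of its kept probes, 1 of which was below background in Nod1 +/-. The slide row setting rests on 1 Nod1 -/- array.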

How the data were processed

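RNA from 6 fetal aortic artery samples was read on 1-colour (Cy3) Agilent arrays, all on 1 slide with 1 scan time. Slide row 2 held every Nod1 +/- array and Nod1 -/- replicate 3, and slide row 1 held the remaining Nod1 -/- arrays, so row and genotype were nearly confounded. The deposited scanner output gives a background-subtracted intensity per spot on a linear scale, made per the file headers by Feature Extraction (Agilent, 10.7.1.1). The version in the submitters' processing notes is 9.5.1.1. Probe positions are on mm9 (NCBI37) per the file headers. The authors' deposited intensity table had a median of 33.4 and nearly equal sorted values in every column, and how it was made was not given in the sources used here. It served as an alternative, and 0 of its columns lacked a sample.

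Control spots and outlier-flagged spots were left out, log2 values were averaged over repeat spots, and each array was scaled by subtracting its 75th percentile. Of 55681 non-control probes, 134 had no usable value on some array. A probe was kept when well above background on at least 3 arrays, which left 30166, and the brightest kept probe stood for its gene. Genotypes were compared with limma 3.58.1 in R 4.3.3 (lmFit and eBayes, Benjamini-Hochberg over all genes, threshold 0.05), after the code was tested on simulated data. Tables were handled with the data.table package (version 1.17.8), pandas 2.3.3 and numpy 2.4.6, and plots drawn with matplotlib 3.10.9. The number of arrays limits the precision.

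Replicate numbers come from the labels, and same-numbered samples had deviations correlated at 0.083, 0.277 and 0.111, so the numbers were not taken as pairs. The members, marker lists and partner list were chosen with earlier results of these data known. Named were every called gene, per role up to 2 others with the smallest adjusted p, Efnb2, Ephb4, Robo4, Unc5b, Plxnd1 and Sema3g, and of the partners the 8 largest differences past the threshold with Nrp1 and Nrp2. All 63 gene names matched a RefSeq symbol. The alternatives changed the background correction, scaling, dim-probe filter, probe rule, value table, block, prior and the arrays included.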

Additional observations from a re-analysis of the deposited data

How the results depend on the processing

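Processing changed how many genes passed more than which way they moved. Across 17 alternatives, the 866 values of the 51 named genes kept direction and side of the threshold in 692, lost the call in 136, gained one in 18 and turned sign in 20. The count of changed genes over the whole array, 4015 as reported, was 2524 with median scaling, 1639 with dim probes tested too, 1034 with a block for slide row, 639 with replicate 1 of both genotypes omitted, and 1468 to 3390 when single arrays were left out. Guidance genes called, 19 as reported, were 7, 5, 4 and 9 to 14 under the last 4 of these in turn, and partner genes, 10 as reported, were 5, 3, 1 and 4 to 9. The slide row block sets 3 Nod1 +/- arrays against Nod1 -/- replicate 3 alone, assumed to vary like the others, so its counts say little about stability. No alternative was left out.

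Median scaling moved the median of all genes by 0.107, from -0.10 to 0.01, and the share of changed genes that were higher from 41.0% to 63.4%. Among guidance genes it gave 9 higher and 8 lower, 52.9% higher against 36.8%. With the replicate number as a block, 22 guidance genes, 10 partners and 4041 genes in all passed. Not every sample correlated best with its own number, so the block is only a hint at pairing.

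Sign changes were confined, among named genes, to Epha5, which gave -1.06 with the mean of its kept probes (1 of them below background in Nod1 +/-), and to 4 genes that had not passed. Robo1 turned to -0.0092 with normexp, -0.24 with a block for slide row and -0.17 with replicate 1 of both genotypes omitted, and ran from -0.22 to 0.15 when single arrays were left out. Robo2 turned to 0.016 with quantile scaling, 0.096 with median scaling and 0.013 with the deposited table, and ran from -0.24 to 0.23 over single arrays. Sema3g turned to 0.063 with median scaling, 0.26 with the mean of probes, 0.072 with a block for slide row and 0.12 with replicate 1 of both genotypes omitted, and ran from -0.14 to 0.042 over single arrays. Unc5a ran from -0.16 to 0.32 over single arrays. The causes were not tested. Signal over background limits the probes of the 7 guidance genes not tested and the dimmer probe of Epha5.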
